A study of Mus musculus with 4 samples.

Results

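Collagen-coated scaffolds were compared with non-coated scaffolds on 2 of the 4 arrays of the series. They were chosen by their titles and are a dye swap of the same pair of RNA extracts, with the collagen-coated sample in Cy5 in replicate 1 and in Cy3 in replicate 2. The other 2 arrays compared a scaffold coated with PMB, a phospholipid polymer that resists protein adsorption, with the same non-coated extract. All groups were male C57BL/6 mice, 8 weeks old, that carried a porous scaffold under the back skin for 7 days, and each kind of scaffold is represented by 1 mouse. The paper calls the scaffold polyethylene and the series title calls it polystyrene. The sources used here do not say whether the kinds of scaffold were in separate mice. RNA came from the rim of tissue next to the scaffold, cut out by laser, so that each extract held mixed cell types.

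A porous implant draws a foreign body reaction. Neutrophils and then macrophages gather on the surface, macrophages may fuse into giant cells, and fibroblasts and new capillaries form granulation tissue that can end as a fibrous capsule. Under the back skin the implant also lies close to a thin striated muscle, to fat and to nerves, and the wound made to insert it is closed by keratinocytes, the epithelial cells of the epidermis.

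Each value is the log2 ratio of the collagen-coated to the non-coated sample. The deposited values, taken as ratios of Cy5 to Cy3, correlated at -0.79 between the replicates, and the sign of replicate 2 was turned before averaging. That Cy5 is on top is not written beside the values. This direction is called likely, from the dyes in the labels and the side of 0 on which the study lists most of its genes. A value on both arrays was present for 24018 of 43377 probes (55.4%), which covered 12356 genes. Higher and lower are used here for a mean log2 ratio of 1 or more in either direction (2-fold) whose sign was shared by both arrays. With 1 extract of each kind there was no test, and the value after ± is the SD of both arrays, a spread from dye and hybridization that says nothing of the spread between mice.

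The table gives ratios and no signal, so a cell type can be checked only by whether its defining genes had a value on both arrays. All markers fixed for skeletal muscle, neutrophils, mast cells, endothelium, fibroblasts, keratinocytes and adipocytes had one, but only 2 of 4 for macrophages, 2 of 3 for T cells and 0 of 3 for B cells. Ratios of the markers lay between -3.39 and -2.52 for muscle, between -0.59 and -0.34 for macrophages and between -0.016 and 0.39 for fibroblasts.

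At the collagen-coated scaffold 331 genes (2.68% of those measured) were higher and 405 (3.28%) were lower than at the non-coated scaffold. The gene ratios ran from -4.02 to 4.99 with a median of 0.043, and their lower and upper quartiles were -0.17 and 0.23. Of the 40 highest genes 10 were in the epidermal list, and of the 40 lowest 24 were in a skeletal muscle list. At least 4-fold differences were found for 55 higher and 107 lower genes, and at least 8-fold differences for 23 higher and 17 lower genes. By probe, 561 (2.34%) were higher and 766 (3.19%) lower. The arrays differed by a median of 0.19 per gene and by over 1 for 87 genes, and 596 of the 736 called genes reached 2-fold on each array by itself.

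**Figure D1:**
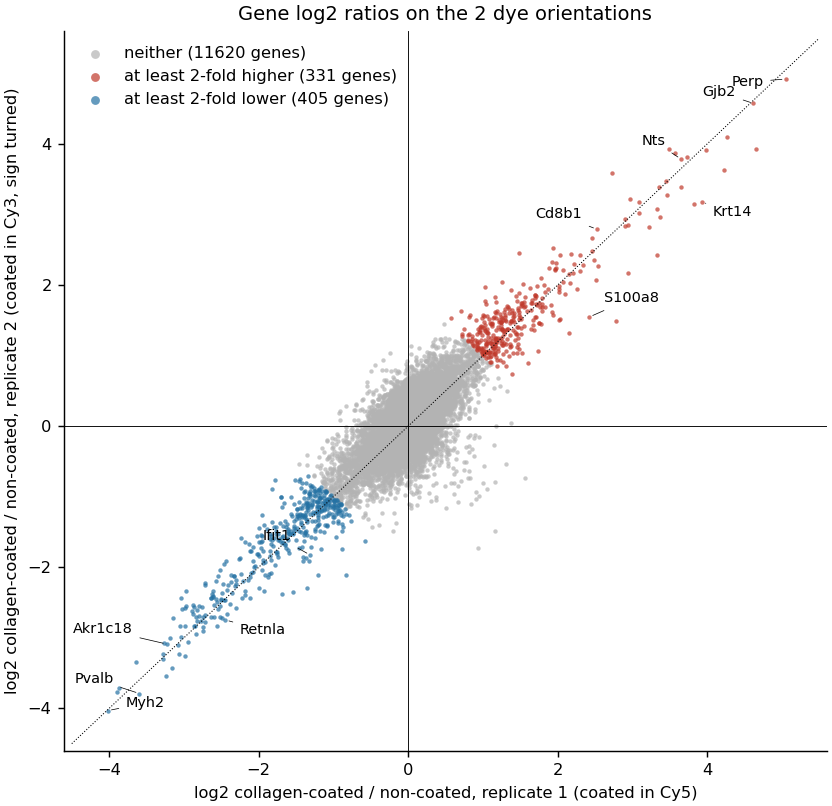
Log2 ratio of collagen-coated to non-coated scaffold for 12356 genes on replicate 1 (x axis) and on replicate 2 with its sign turned (y axis), with 1 point per gene. Red points are the 331 genes at least 2-fold higher, blue points the 405 genes at least 2-fold lower, and the dotted line marks equal values. Both ends lie along the line, and S100a8 is farther from it, at 2.43 and 1.55.

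The probe annotated as Perp, a membrane protein of desmosomes, had the highest ratio of all genes, with log2 ratios of 5.05 and 4.92 on replicates 1 and 2. The annotation used here gives this probe to Perp, whereas the study's table gives it to PDGF-C, so its identity is uncertain. The 2 probes annotated as Pdgfc stood at -1.13 and -1.0. Gjb2, the gap junction protein connexin 26 of epithelia, followed at 4.62 and 4.58 (mean 4.60 ± 0.028, 24.2-fold).

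Genes of the epidermis had the highest median of the 77 gene lists examined, and this rank rested on genes without values on both PMB arrays. Of 20 measured genes of 39 listed, 15 were higher and 0 lower, with a median log2 ratio of 2.42 against 0.043 over all genes. The keratins of the basal layer, Krt5 and Krt14, which pair into filaments, stood at 3.83 and 3.15 and at 3.93 and 3.18. Krt6a, Krt16 and Krt17, the keratins that epidermis makes in wounds and in hyperproliferation, were at 3.46 and 3.48, at 4.22 and 3.63 and at 3.37 and 2.97. These 5 keratins were thus between 9.01-fold and 15.2-fold higher at the collagen-coated scaffold on the mean of both arrays. Krt10, the keratin of the differentiating layers above them, had ratios of -0.25 and 0.21 on either side of 0.

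Trp63, the transcription factor that marks epidermal stem and basal cells, stood at 2.91 and 2.94 (mean 2.93 ± 0.023). Of the desmosome plaque proteins, Pkp1 was at 3.49 and 3.92 and Pkp3 at 1.35 and 1.60. The adherens junction protein Cdh1 (E-cadherin), measured by 10 probes, stood at 1.67 and 1.44. Its probes lay between 1.42 and 1.65, all above 2-fold. Among precursors of the cornified envelope, the tough shell of dead surface cells, Sprr1a had 3.33 and 3.08 and Sprr2d 3.47 and 3.27. Galectin 7 (Lgals7), a lectin of stratified epithelia, was at 3.57 and 3.88, and Krtdap, a secreted differentiation protein, at 1.88 and 1.95. The barrier genes Sbsn (-0.71 ± 0.17), Dmkn (-0.53 ± 0.10), Ppl (-0.27 ± 0.47) and Cldn1 (-0.25 ± 0.040) lay below 0 and did not reach 2-fold. Bulk tissue was measured, so more cells of a type and more RNA per cell cannot be told apart.

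Most of these genes could not be set beside the PMB coating. Of the 20 epidermal genes, 6 had no value on either PMB array and 5 had one on PMB replicate 1 alone, and the 9 genes with values on both PMB arrays, over all their probes, had a median of 1.4 with collagen and 0.37 with PMB. Krt16 was at 3.93 with collagen and at -0.40 on PMB replicate 1, Krt17 at 3.17 with collagen and 0.079 on that PMB array, and Trp63 at 2.93 with collagen and 0.33 there. When only probes valued on all 4 arrays were kept, the epidermal median was 1.18, below those of stefins and cystatins (1.61), neutrophil genes (1.29) and T cell genes (1.28). The same gap touched the high end as a whole. Of the 40 highest genes, 21 lacked a value on at least 1 PMB array, against 0 of the 40 lowest. Among probes with a value on PMB replicate 1 and not on replicate 2, 104 of 1575 were higher with collagen (6.6%), against 447 of 22380 with values on both (2%).

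**Figure D2:**
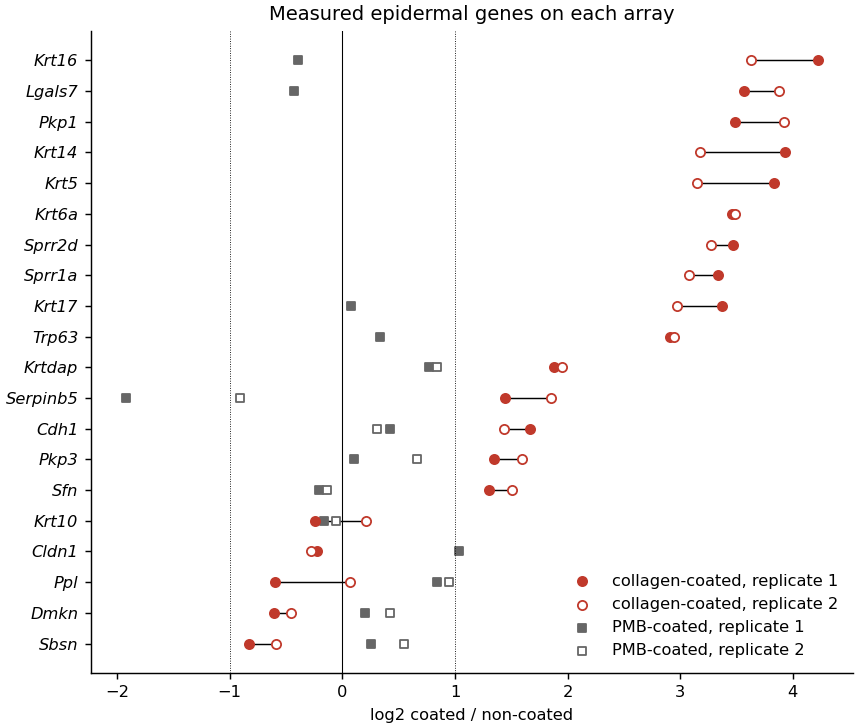
Log2 ratio of coated to non-coated scaffold (x axis) for the 20 measured epidermal genes, 1 row per gene. Red circles are the collagen arrays (filled, replicate 1; open, replicate 2; joined by a line), grey squares the PMB arrays where they had a value, and dotted lines mark 2-fold. The upper 15 genes lie beyond 2-fold on both collagen arrays, and Krt10 lies on either side of 0.

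AP-1, the factor built of Jun and Fos proteins, is known to act at many promoters of the cornified envelope. Its site was searched as TGANTCA, which reads the same on both strands, in RefSeq promoters of GRCm38.p6 from 250 bases before to 50 bases after the start of a gene. 6 of 12 epidermal genes with a promoter held it, against 8.97% of all genes with a promoter. It was in 4 of 8 epidermal genes that were higher and in 2 of 4 that were not, and also in 8 of 31 type I interferon genes (25.8%), nearly all of which lay below 0. Among all measured genes it was in 14.9% of those higher with collagen, 11% of those lower and 6.29% of the rest. A match describes the letters and is not a measured binding site. The stretches of the 4 higher epidermal genes that held the site are printed 5′ to 3′ along the gene's strand with 20 bases on either side, the site in capitals, because these genes are among the higher ones and share the site. Sprr1a (chr3:92485971-92486047, minus strand) held 2 copies, and Sprr2d (chr3:92338927-92338973, plus), Krtdap (chr7:30787804-30787850, plus) and Serpinb5 (chr1:106861015-106861061, plus) held 1 each.
Sprr1a: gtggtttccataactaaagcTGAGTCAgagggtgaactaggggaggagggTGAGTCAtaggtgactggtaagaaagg
Sprr2d: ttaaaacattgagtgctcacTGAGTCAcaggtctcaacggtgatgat
Krtdap: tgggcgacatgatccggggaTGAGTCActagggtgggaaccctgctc
Serpinb5: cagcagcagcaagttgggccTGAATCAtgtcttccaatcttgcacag

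Sprr1a was part of a longer block. S100a8, S100a9, 7 members of the Sprr2 family and Sprr1a were 10 measured genes in a row in the RefSeq gene order of GRCm38.p6, and all were higher, between 1.21 and 3.37. This block lies in the epidermal differentiation complex, a cluster of genes for the surface of the skin. All 7 measured Sprr2 genes were among the higher genes, with a median of 1.81, from Sprr2g at 1.21 ± 0.085 to Sprr2d at 3.37 ± 0.14. The Sprr2 genes are close copies of each other, and how far each probe is specific was not tested. Krt14, Krt16 and Krt17 also followed each other in the gene order, as did the stefin genes Cstdc6, Stfa2 and Stfa3.

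Several genes of the attachment of epithelium to its basement membrane were higher, and others were not. They are in no list of their own. Col17a1, the transmembrane collagen of hemidesmosomes, stood at 4.27 and 4.1 (mean 4.18 ± 0.12, 18.2-fold), the highest of 27 measured collagens. Lama3, a chain of the laminin that hemidesmosomes bind, was at 2.21 and 2.18, and Itgb4, the integrin chain of hemidesmosomes, at 0.88 and 1.14. Col7a1, the collagen of anchoring fibrils, was at 1.55 and 1.75. Itga6, the integrin chain that pairs with Itgb4, stood at -0.078 ± 0.19 and the linker Dst at 0.61 ± 0.11, both short of 2-fold. Other epithelial genes at the high end were Ly6d, a surface protein of stratified epithelium, at 3.73 and 3.82, the water and glycerol channel Aqp3 at 2.97 and 3.22, the calcium-binding protein S100a14 at 2.72 and 3.60 and the mucosal keratin Krt13 at 3.34 and 2.43. Of the 9 measured genes whose symbol is Krt and a number, 6 were higher and 1 was lower, Krt19, a keratin of simple and ductal epithelia, at -1.85 and -1.59. Krt6a lies outside this count by its symbol.

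Some antimicrobial genes, picked with their values in view, had high ratios on both arrays, whereas the neutrophil proteins Ltf (0.15 ± 0.061) and Prtn3 (0.054 ± 0.013) did not reach 2-fold. The beta-defensin Defb14 stood at 4.66 and 3.93 (mean 4.29 ± 0.51, 19.6-fold) and Reg3g, a lectin that kills Gram-positive bacteria, at 3.65 and 3.39. The iron-sequestering protein lipocalin 2 (Lcn2) was at 2.95 and 2.17, and the protease inhibitor Slpi at 1.70 and 1.86. The serum amyloid genes Saa1, Saa2 and Saa3, neighbours in the genome and products of the acute phase, were at 1.99 ± 0.17, 1.27 ± 0.21 and 2.13 ± 0.91. Saa3 had 2.78 and 1.49 on replicates 1 and 2, a larger difference between the arrays than its relatives had.

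Of 9 measured inhibitors of cathepsins, the stefins and cystatins, 5 were higher and 0 lower, with a median of 1.61. The stefin A copies Stfa3, Cstdc6, Stfa2 and Stfa2l1, which myeloid cells and keratinocytes make, stood at 3.95 ± 0.056, 3.02 ± 0.27, 2.10 ± 0.22 and 1.61 ± 0.24. Cst7, a cystatin of cytotoxic cells, was at 2.32 ± 0.038, whereas Cst3, the general secreted cystatin, was at -0.43 ± 0.39. Among 14 serpins, 3 were higher, namely Serpina3f (1.78 ± 0.36), Serpinb5 (1.65 ± 0.28) and Serpina3n (1.31 ± 0.21). The stefin A and Serpina3 genes are multigene families, and cross-hybridization between copies was not tested.

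**Figure D3:**
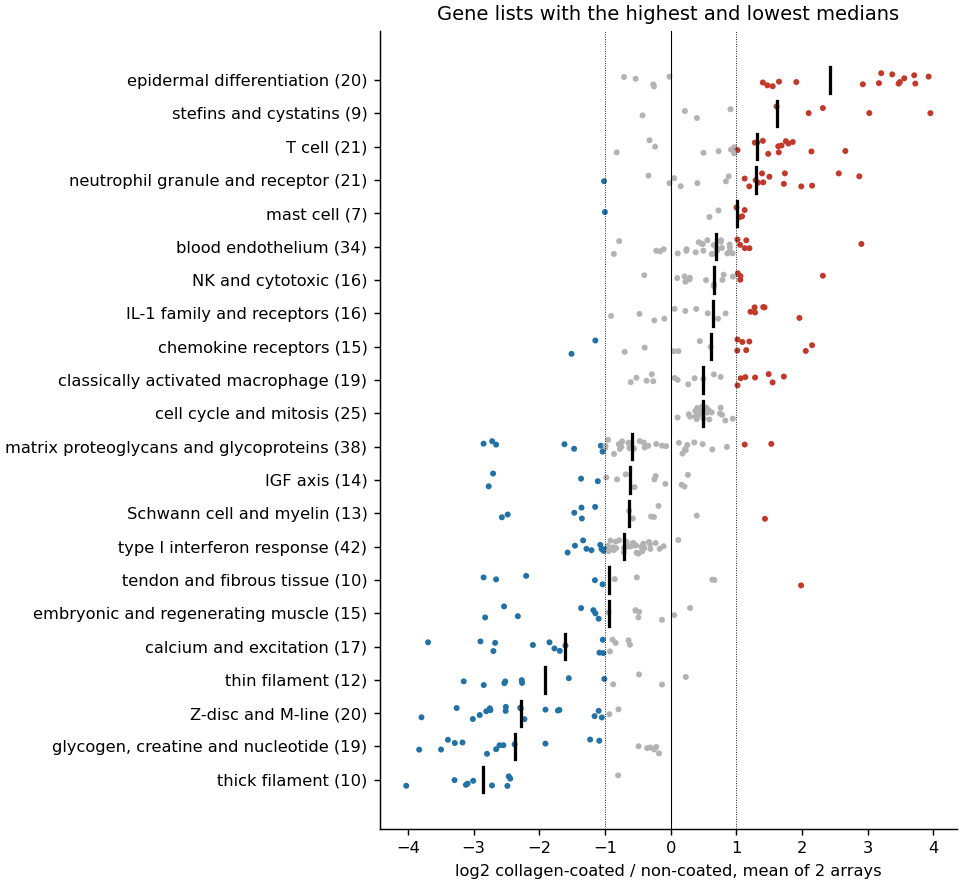
Log2 ratio of collagen-coated to non-coated scaffold (x axis, mean of 2 arrays) for the members of the 11 lists with the highest and the 11 lists with the lowest medians among lists with at least 7 measured genes. Each point is a gene, red where at least 2-fold higher and blue where at least 2-fold lower, black bars are list medians, and the number of measured genes stands in brackets. Epidermal genes lie highest, with a median of 2.42, and thick filament genes lowest, with -2.86.

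T cell genes were higher at the collagen-coated scaffold. Of 21 measured genes of 34 listed, 13 were higher and 0 lower, with a median of 1.32. Cd8b1, a chain of the co-receptor of killer T cells, had the highest ratio, at 2.53 and 2.79. The T cell receptor signalling chains Cd3g, Cd3d and Cd247 stood at 2.07 and 2.22, at 1.72 and 1.99 and at 1.57 and 1.71. The costimulatory receptors Icos and Cd27 were at 1.79 ± 0.23 and 1.4 ± 0.53, the scavenger-like receptors Cd5 and Cd6 at 1.75 ± 0.088 and 1.65 ± 0.0042, and the kinase Zap70 at 1.28 ± 0.24. Cd163l1, found on gamma-delta T cells in mice, was at 1.69 ± 0.29. Not every member followed. Il7r, the receptor of the survival cytokine IL-7, stood at -0.84 and -0.80, Cd28 at -0.24 ± 0.31 over 10 probes, and Thy1, which fibroblasts and nerves also express, at -0.32 ± 0.062.

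Natural killer and cytotoxic genes gave 4 higher and 0 lower of 16, with a median of 0.66. Besides Cst7 they were Nkg7 (1.06 ± 0.20) and Ctsw (1.02 ± 0.13), proteins of cytotoxic granules, and the death ligand Fasl (1.06 ± 0.24). Gzmc, a granzyme, had the lowest ratio of the list at -0.40 ± 0.27. Klrg1, an inhibitory receptor of effector T and NK cells, stood at 1.24 and 1.24. Of the 6 measured Gimap genes, GTPases of lymphocytes, 3 were higher, with Gimap3 at 1.70 ± 0.070. B and plasma cell genes had no member past 2-fold of 7 measured, and their ratios ran from -0.53 to 0.67. With 2.68% higher and 3.28% lower over all genes, that count says little for 7 genes.

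Of 21 neutrophil genes, 13 were higher and 1 lower, with a median of 1.29. The gelatinase Mmp9, stored in neutrophil granules and measured by 11 probes, stood at 2.90 and 2.84 (mean 2.87 ± 0.043, 7.32-fold). Receptors for chemoattractants and growth factors followed, with Cxcr2 at 2.15 and 2.15, Fpr2 at 1.72 and 1.73 and Csf3r, the receptor of G-CSF, at 1.43 and 1.23. The 2 probes of Cxcr2 differed, with means of 1.61 and 2.70. The calprotectin genes S100a8 and S100a9 differed between the dye orientations, at 2.43 and 1.55 and at 2.16 and 1.32. Within the granule proteins the values were uneven. Mpo was at 1.29 ± 0.41 and Mmp8 at 1.20 ± 0.30, and Prtn3 and Ltf were near 0. Padi4, the enzyme that citrullinates histones in neutrophil traps, was the lower member, at -1.10 and -0.92. Keratinocytes can also make Lcn2, S100a8 and S100a9, and the epidermal list was higher in the same extract with a median of 2.42. The part of keratinocytes in these values was not tested.

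Most mast cell genes lay above 0 and the eosinophil genes below 0. Of 7 mast cell genes, 4 were higher, all by little more than 2-fold, namely Hdc, the histamine-forming enzyme, at 1.13 ± 0.0035, the proteases Cpa3 and Cma1 at 1.09 ± 0.086 and 1.05 ± 0.18, and the growth factor receptor Kit at 1.0 ± 0.28. Hpgds, the prostaglandin D synthase of mast cells and other leukocytes, was lower at -1.0 ± 0.15. Of 4 eosinophil genes, 3 were lower. They were the eosinophil ribonucleases Ear6 (-1.54 and -2.34) and Rnase2a (-1.91 and -1.93) and the eotaxin receptor Ccr3 (-1.4 and -1.62). Siglecf, another eosinophil marker that macrophages can share, was at -0.33 ± 0.033. All 4 measured ribonucleases of the Ear family were lower, between -2.04 and -1.92. They are near-identical copies whose probes may share signal.

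General macrophage genes passed 2-fold about as often as all genes, and the lists of macrophage activation lay on either side of 0. Of 30 pan-macrophage genes, 0 were higher and 2 were lower, with a median of -0.035 (-0.12 and -0.14 by array). Over all genes 2.68% were higher and 3.28% lower. The lower ones were Cd5l (-1.97 and -1.72), a secreted scavenger receptor of tissue macrophages, and Lyve1 (-1.76 and -1.78), carried by perivascular macrophages and lymphatic vessels. Of 30 genes of alternatively activated macrophages, 8 were lower and 1 higher, with a median of -0.53. Resistin-like alpha (Retnla) was at -2.44 and -2.75, the eotaxin Ccl24 at -1.77 and -1.52, the folate-binding receptor Folr2 at -1.5 ± 0.16 and the haemoglobin scavenger receptor Cd163 at -1.15 ± 0.39. Pdcd1lg2, the checkpoint ligand PD-L2, was the higher member at 1.53 and 1.72.

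Of 19 genes of classical activation, 7 were higher and 0 lower, with a median of 0.50 (0.30 and 0.67 by array). Besides Fpr2 they included the cytokines Tnf (1.48 and 1.62) and Il1b (1.53 and 1.04), the chemokines Ccl4 (1.49 ± 0.47) and Ccl3 (1.07 ± 0.46) and the cyclooxygenase Ptgs2 (1.14 ± 0.092). Il6 was at -0.61 ± 0.073. The list of giant cells and osteoclasts, which share their fusion machinery, had a median of -0.086, and 11 of its 19 genes lay below 0. Of the 19, 4 were higher. Beside Mmp9 these were the osteoclast cytokine RANKL (Tnfsf11) at 1.77 ± 0.040, the receptor Oscar at 1.52 ± 0.040 and the phosphatase Acp5 at 1.22 ± 0.053. The fusion-linked chemokine Ccl2 was lower at -1.20 ± 0.17. None of 31 lysosomal genes reached 2-fold, beside 2.68% higher and 3.28% lower over all genes, and a set this small can hold none.

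Of 16 genes of the interleukin 1 family, 6 were higher and 0 lower, with a median of 0.64. The ligands were Il1f9 (IL-36 gamma, made by keratinocytes) at 2.01 and 1.91, Il1b and Il1a (1.22 ± 0.041), and the receptor genes Il1rap (1.43 ± 0.034), Il18r1 (1.28 ± 0.26) and the decoy Il1r2 (1.41 ± 0.14). Il33, the alarm cytokine of barrier and stromal cells, had the lowest ratio at -0.91 ± 0.18. Among 42 other interleukin genes, 4 were higher and 4 lower. The decoy receptor of IL-13, Il13ra2, was at 2.22 and 2.31, and Il11, Il10, Tslp and Csf2 were at -1.59 ± 0.33, -1.41 ± 0.23, -1.23 ± 0.036 and -1.18 ± 0.019.

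Of 15 chemokine receptors, 7 were higher and 2 lower, with a median of 0.61, or 0.36 over probes with a value on all 4 arrays. Cxcr6, carried by effector T cells and NKT cells, stood at 2.07 and 2.04, Ccr6 at 1.20 ± 0.32, Cxcr4 at 1.09 ± 0.062 and Ccr9 at 1.01 ± 0.0071, and the scavenger receptor Ackr3 was lower at -1.15 ± 0.11. Chemokine ligands divided. Of 31, 6 were higher and 2 lower, with a median of -0.11 whose sign differed between the arrays (0.017 and -0.11 by array). Cxcl12, the ligand of Cxcr4, stood at 1.70 and 1.55, the neutrophil attractants Cxcl2 and Cxcl5 at 1.29 ± 0.24 and 1.24 ± 0.038, and the B cell attractant Cxcl13 at 1.25 ± 0.50. Of 33 TNF superfamily genes, 9 were higher, among them the lymphotoxin chain Ltb (1.49 ± 0.086), Tnfsf14 (1.35 ± 0.28) and the T cell receptors Tnfrsf9 (1.22 ± 0.26), Tnfrsf18 (1.20 ± 0.20) and Tnfrsf4 (1.08 ± 0.17). The RANKL decoy Tnfrsf11b was lower, at -1.41 ± 0.20. Tnfaip6, an NF-kappaB target that binds hyaluronan, was at -2.56 and -2.50, and 5 of 26 listed NF-kappaB genes were higher. Pattern recognition receptors gave 6 higher and 0 lower of 31, led by the fungal lectin receptors Clec4n (1.78 ± 0.12) and Clec4e (1.44 ± 0.20), and by Trem1, Trem3 and Treml4, neighbours in the genome, between 1.39 and 1.60.

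Genes of the type I interferon response lay below 0 almost throughout. Of 42 measured, 9 were lower and 0 higher, 41 had a mean below 0, and the median was -0.71. By array the median was -0.74 on replicate 1 and -0.79 on replicate 2. Ifit1, which binds foreign RNA caps, had the lowest ratio at -1.31 and -1.82, followed by its relatives Ifit3b at -1.17 and -1.74 and Ifit3 at -1.18 and -1.48. The GTPase Mx2 was at -1.21 ± 0.27, the oligoadenylate synthetase relatives Oasl1 and Oasl2 at -1.01 ± 0.13 and -1.07 ± 0.088, the ISG15 protease Usp18 at -1.05 ± 0.014 and the RNA sensor Dhx58 at -1.02 ± 0.013. Irf9, a subunit of the factor that drives these genes, stood at 0.12 ± 0.028. Of the interferon-gamma genes 1 was higher and 1 lower of 24, with a median of 0.013 (-0.048 and 0.14 by array). Their highest was the ubiquitin-like Ubd at 3.08 and 3.17 and their lowest the GTPase Gbp3 at -0.99 and -1.15.

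Interferon-stimulated genes are known to carry a shared response element in their promoters. It was searched as GAAANNGAA on both strands in the same promoters. 19 of 31 measured interferon genes with a promoter held it (61.3%), against 9.76% of all genes. Among all measured genes it was in 11.2% of those higher with collagen, 13.4% of those lower and 8.63% of the rest. Of the 5 lower interferon genes with a promoter 3 held it (60%), a share like that of the list, and Oasl1 and Oasl2 did not. The 3 are Ifit1, Ifit3 and Ifit3b, the genes with the lowest ratios of the list, and their stretches are printed with the matches in capitals. On the printed strand these are the reverse complement of the letters searched. Ifit1 (chr19:34640760-34640833, plus strand) held 3 matches, the first pair overlapping, and Ifit3 (chr19:34583354-34583455, plus) held 3. The stretch of Ifit3b (chr19:34607750-34607851, plus) had the same letters as that of Ifit3, so the copies are close relatives and their probes may share signal.
Ifit1: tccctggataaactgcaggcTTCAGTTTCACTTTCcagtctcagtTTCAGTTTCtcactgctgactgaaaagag
Ifit3: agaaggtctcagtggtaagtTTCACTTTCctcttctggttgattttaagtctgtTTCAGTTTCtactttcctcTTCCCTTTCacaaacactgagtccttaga

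Skeletal muscle genes formed the low end. Over the 6 muscle lists together, 66 of 92 measured genes were lower and 0 higher, with a median of -1.91, and 45 of them were at least 4-fold lower. They were 16.3% of all lower genes, and 339 lower genes lay outside these lists. The fast myosin heavy chains Myh2 and Myh4 stood at -4.02 and -4.03 and at -2.95 and -3.06. In the gene order Myh3, Myh2, Myh1, Myhas, Myh4 and Myh8 followed each other and all were lower, between -4.02 and -1.18. Glycogen, creatine and nucleotide enzymes ran from Ckmt2, the mitochondrial creatine kinase, at -3.89 and -3.77 to Slc25a4, the nucleotide carrier of mitochondria, at -0.18 ± 0.31. The calcium-handling genes ran from the buffer Pvalb at -3.60 and -3.79 to Chrnb1, a subunit of the acetylcholine receptor at the nerve ending, at -0.62 ± 0.046.

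Within muscle the difference was not uniform. The lists of the mature contractile machinery had medians of -2.86 (thick filament), -2.28 (Z-disc and M-line) and -1.91 (thin filament), and embryonic and regenerating muscle genes one of -0.94, with 7 of 15 lower. The slow-fibre troponins Tnnc1 and Tnnt1 were at 0.23 ± 0.12 and -1.01 ± 0.23, against -2.26 ± 0.11 and -3.15 ± 0.11 for the fast Tnnc2 and Tnnt3. The slow Tnni1 and the fast Tnni2 were also measured, and their values are not given here. Ankrd1, a stress-responsive nuclear protein of muscle that wounds also express, had the highest ratio of the muscle lists, at 0.32 and 0.28. Ubiquitin ligases and adaptors of muscle outside the lists, chosen after their values were seen, were lower too, among them Trim63 (-2.48 ± 0.035), Asb5 (-2.74 ± 0.083), Klhl31 (-2.66 ± 0.45) and Klhl41 (-2.47 ± 0.00071). Of 29 measured Klhl genes 4 were lower and 1 was higher.

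Genes that every cell uses stayed near the median of all genes. None of 63 respiratory chain subunits reached 2-fold, with ratios from -0.28 to 0.36, although the muscle isoforms Cox8b (-3.50 ± 0.21) and Cox6a2 (-2.37 ± 0.074) were among the lowest genes. None of 34 ribosomal protein genes and none of 26 proteasome genes reached it either, with medians of 0.19 (0.30 and 0.082 by array) and 0.094 (0.050 and 0.084 by array). Genes of the dividing cell lay above 0 by a small margin. Of 53 genes of mitosis and DNA replication 50 had a mean above 0 and 48 were above 0 on both arrays, none reached 2-fold, and the median was 0.41. The highest was the spindle checkpoint kinase Bub1b at 0.87 and 1.03, and the lowest the replication clamp Pcna at -0.39 ± 0.31. No zinc finger gene of the 273 named Zfp was past 2-fold, and none of 23 olfactory receptors. Over all genes 2.68% were higher and 3.28% lower, so a count of 0 says little for the smaller sets.

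The interstitial matrix differed gene by gene. Of 27 collagens 4 were higher and 3 lower, and the median was 0.052 (0.091 and 0.043 by array). Col1a1 and Col1a2, the chains of the fibrils that fibroblasts lay down, stood at 0.25 ± 0.29 and -0.016 ± 0.48. The short-chain collagens Col8a2 and Col8a1 were at -2.63 and -2.37 and at -1.45 and -1.48, and Col4a5 and Col4a2 of basement membranes lay on opposite sides at -1.82 ± 0.67 and 1.20 ± 0.057. Of 38 proteoglycans and glycoproteins, 7 were lower and 2 higher, with a median of -0.58. The cartilage and tendon protein Cilp was at -2.86 and -2.83, the hyaluronan synthase Has1 at -2.83 and -2.60, and Thbs4, a thrombospondin of tendon and muscle, at -2.60 and -2.71. The small proteoglycans Omd, Ogn and Fmod were at -1.62 ± 0.35, -1.06 ± 0.16 and -1.04 ± 0.22, and tenascin C (Tnc), which wounds induce, and the basement membrane protein Nid2 were the higher members at 1.13 ± 0.056 and 1.53 ± 0.069.

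Tendon genes gave 5 lower of 10, among them tenomodulin (Tnmd) at -2.21 and -2.19 and the transcription factor Scx at -1.15 ± 0.23, and 1 higher, the tendon homeobox factor Mkx at 2.02 and 1.95. Elastic fibre genes gave 3 lower of 17, with Efemp1 at -1.94 ± 0.24 and elastin (Eln) at -1.34 ± 0.0092. Of 18 metalloproteinases and inhibitors, Mmp9, the stromelysin Mmp3 (1.36 ± 0.16) and the neutrophil collagenase Mmp8 were higher, and the macrophage elastase Mmp12 (-1.13 ± 0.35) and the inhibitor Timp3 (-1.27 ± 0.11) lower. Of 25 ADAM and ADAMTS genes 5 were lower, led by Adamts19 at -2.86 and -2.57, and Adamts7 was higher at 1.38 ± 0.10.

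Blood vessel genes lay above 0. Of 34 endothelial genes 6 were higher and 0 lower, 29 had a mean above 0, and the median was 0.69. Car4, a carbonic anhydrase of capillary walls, stood at 2.95 and 2.86, apart from the rest of the list. The tight junction protein Cldn5 was at 1.20 ± 0.27, the tip cell marker Esm1 at 1.15 ± 0.27, the diaphragm protein Plvap at 1.13 ± 0.034 and the apelin receptor Aplnr at 1.02 ± 0.22. The defining markers Pecam1, Cdh5 and Kdr were at 0.90 ± 0.0038, 0.94 ± 0.15 and 0.49 ± 0.047, below 2-fold, and Aqp1 was lowest at -0.86 ± 0.25. Of 19 smooth muscle and pericyte genes 2 were higher and 2 lower, 14 had a mean above 0, and the median was 0.22. The contractile protein Cnn1 at 1.48 and 2.46 and the PDGF receptor Pdgfrb at 1.01 ± 0.14 were higher. Synemin (Synm) was lowest at -1.61 ± 0.078. In the list of VEGF, angiopoietin and apelin genes 1 of 25 was higher and 2 were lower, with a median of 0.11. Angptl1 was its lowest gene at -2.44 and -2.47, and adrenomedullin (Adm) was at -1.25 ± 0.14. Of 9 lymphatic genes 2 were lower, the matrix glycoprotein Reln at -2.88 and -2.54 and the marker Lyve1 at -1.76 and -1.78, and 2 were higher, the lymphangiogenic factor Ccbe1 at 1.31 and 1.37 and the semaphorin Sema3a at 1.02 ± 0.035.

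Some secreted regulators of growth factors were among the lower genes. In the IGF axis 4 of 14 genes were lower and 0 higher, with a median of -0.62. The binding proteins Igfbp5 and Igfbp2 had ratios of -2.78 and -2.76 and of -2.72 and -2.68, the fetal growth factor Igf2 was at -1.36 ± 0.17 and Igfbp6 at -1.11 ± 0.20. In the BMP branch of the TGF-beta family, the BMP antagonist Chrdl1 was at -2.84 and -2.71 and the ligands Bmp3 and Gdf10 at -1.79 and -1.43 and -1.37 and -1.31. No other gene of 42 in that list reached 2-fold. In the Wnt pathway the ligands Wnt2 and Wnt9a stood at -2.87 and -2.66 and at -1.44 and -1.38, the antagonists Dkk2 and Sfrp4 at -1.45 ± 0.13 and -1.46 ± 0.034 and the stem cell receptor Lgr5 at -1.79 ± 0.34. The ligand Wnt5b (1.21 ± 0.42) and the nuclear effector Lef1 (1.32 ± 0.052), which is also in the T cell list, were the higher ones of 32. Fgf18 was at -2.19 and -2.39. Fgf10, an epithelial growth factor from stroma, was at 1.41 and 1.37 over 10 probes between 1.19 and 1.63. The study's table puts Fgf10 on the opposite side of 0. It also does so for Vegfa, at -0.54 and -0.54 here over 12 probes of a transcript. The same holds for Igf1, at -0.67 and -0.76 here over 10 probes of a transcript. Which probes the study's values came from is not given, and these differences were not resolved.

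Several Schwann cell genes were lower. Of 13 measured, 6 were lower and 1 higher, with a median of -0.63 (-1.02 and -0.51 by array). Myelin basic protein (Mbp) stood at -2.55 and -2.59, and Plekhb1 at -2.72 and -2.24. The identity factor Sox10 was at -1.70 and -1.0, S100b at -1.36 ± 0.67 and the neurotrophin receptor Ngfr at -1.15 ± 0.33. The higher member was Nrn1, a promoter of neurite growth, at 1.44 ± 0.074. Of the 11 probes of Mbp 1 stood apart, and the probe means ran from -2.98 to 0.058. Axon guidance genes gave 5 higher and 4 lower of 49. The class 3 semaphorins divided, with Sema3e at -2.32 and -2.13, Sema3c at -1.68 and -1.42 and Sema3d at -1.42 and -1.16 lower and Sema3a at 1.0 and 1.05 higher, and the netrin receptors Unc5c and Unc5b were higher at 1.65 ± 0.56 and 1.59 ± 0.12. Nts, the precursor of the peptide neurotensin, had 3.65 and 3.79, 13.2-fold on the mean.

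Fat cell genes were lower in part. Of 33 measured, 8 were lower and 0 higher, with a median of -0.28. Nnat, an imprinted gene of fat and nerve, had -2.52 and -2.03, the insulin-regulated glucose transporter Slc2a4, which muscle shares, -1.66 ± 0.087, and the carbonic anhydrase Car3, also of muscle, -1.53 ± 0.061. The defining genes Adipoq and Lep stood at -0.67 ± 0.047 and -0.50 ± 0.19. Among 51 enzymes of xenobiotic and steroid metabolism 4 were higher and 5 lower. The progesterone-degrading Akr1c18 was at -3.23 and -3.09, Cyp2e1 at -2.74 and -2.85 and the carboxylesterase Ces1d at -2.06 and -2.0. The oxysterol hydroxylase Cyp7b1 was at 1.79 and 1.81. Of 27 prostaglandin and leukotriene genes 2 were higher and 3 lower. The E2 receptor Ptger3 was at -3.19 and -3.0, prostacyclin synthase (Ptgis) at -1.51 ± 0.29 and the degrading enzyme Hpgd at 1.62 ± 0.027. Of 23 genes of arginine and nitric oxide metabolism 2 were higher and 1 lower, with a median of 0.12. The higher ones were Arg2 and Ass1, which breaks down and which helps remake arginine, at 1.97 and 2.23 and at 1.76 and 1.69. Among 27 iron and metal genes, Lcn2, haptoglobin (Hp, 1.5 ± 0.028), the iron exporter Slc40a1 (1.19 ± 0.18) and the metalloreductase Steap4 (1.16 ± 0.056) were higher. Of 32 glycolysis and hypoxia genes 3 were lower, Ankrd37 (-1.44 ± 0.13), Adm and Bnip3 (-1.14 ± 0.24). None of 28 cholesterol genes and none of 16 clock genes reached 2-fold. Over all genes 2.68% were higher and 3.28% lower, and sets this small can hold none. Of 32 immediate-early genes 3 were lower, the transcription factors Fosb (-1.75 ± 0.29), Klf4 (-1.42 ± 0.019) and Fos (-1.08 ± 0.059), and 1 was higher, the phosphatase Dusp2 (1.32 ± 0.090).

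The lists held 138 of the higher and 176 of the lower genes, so that 193 higher and 229 lower genes were in none. The following were chosen from these after their values were seen. Higher were Urah, an enzyme of uric acid breakdown, at 3.36 and 3.40, Clstn2, a synaptic calsyntenin, at 3.08 and 3.02, the ectonucleotidase Entpd3 at 2.46 and 2.67, and Spic, the transcription factor of red pulp macrophages, at 2.46 and 2.48. The leukocyte receptors Gpr84, Gpr18 and Slamf6 were at 2.23 ± 0.28, 2.01 ± 0.023 and 2.11 ± 0.19, the pancreatic stone protein Reg1 at 2.15 ± 0.23, the growth factor midkine (Mdk) at 1.72 ± 0.0042, and the high endothelial mucin Glycam1 at 1.75 ± 0.26. Lower were the lipocalin Apod at -1.88 and -2.14, the protease inhibitor A2m at -1.86 and -2.09, the thyroid hormone deiodinase Dio2 at -1.84 and -1.77, the matrix protein Vit at -2.54 and -2.13, the G protein regulator Rgs1 at -2.0 ± 0.059 and the transcription factors Osr1 (-1.66 ± 0.028) and Zic1 (-1.62 ± 0.084). Of 204 measured solute carriers 6 were higher and 4 lower, close to the shares over all genes (2.68% higher and 3.28% lower). The cystine exchanger Slc7a11 was at 1.53 ± 0.23. Of 37 histone genes 4 were lower, with H1f3 at -1.68 ± 0.099. Of the 3745 measured probes with no single gene name, 71 were higher and 92 lower, between -3.31 and 2.77.

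Set beside the PMB coating, several lists stood on opposite sides of 0. Both coatings were measured against the same non-coated extract, so the values are given side by side and no overlap is drawn from them. Over genes with values on all 4 arrays, cell cycle genes had a median of 0.49 with collagen and -0.27 with PMB, and T cell genes 1.28 and -0.38. Type I interferon genes had -0.71 with collagen and 0.22 with PMB, Schwann cell genes -0.89 and 0.48, and adipocyte genes -0.27 and 0.48. Muscle lists were below 0 with each coating but not in the same proportion, at -2.37 with collagen and -0.64 with PMB for energy enzymes, and at -0.94 with collagen and -1.82 with PMB for embryonic genes. Among genes at least 2-fold one way on each collagen array and at least 2-fold the other way on each PMB array were Retnla, at -2.44 and -2.75 with collagen and 1.83 and 1.55 with PMB, and Cyp2e1, at -2.74 and -2.85 with collagen and 1.51 and 1.51 with PMB. None of these differences between coatings could be tested with 1 extract of each.

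**Figure D4:**
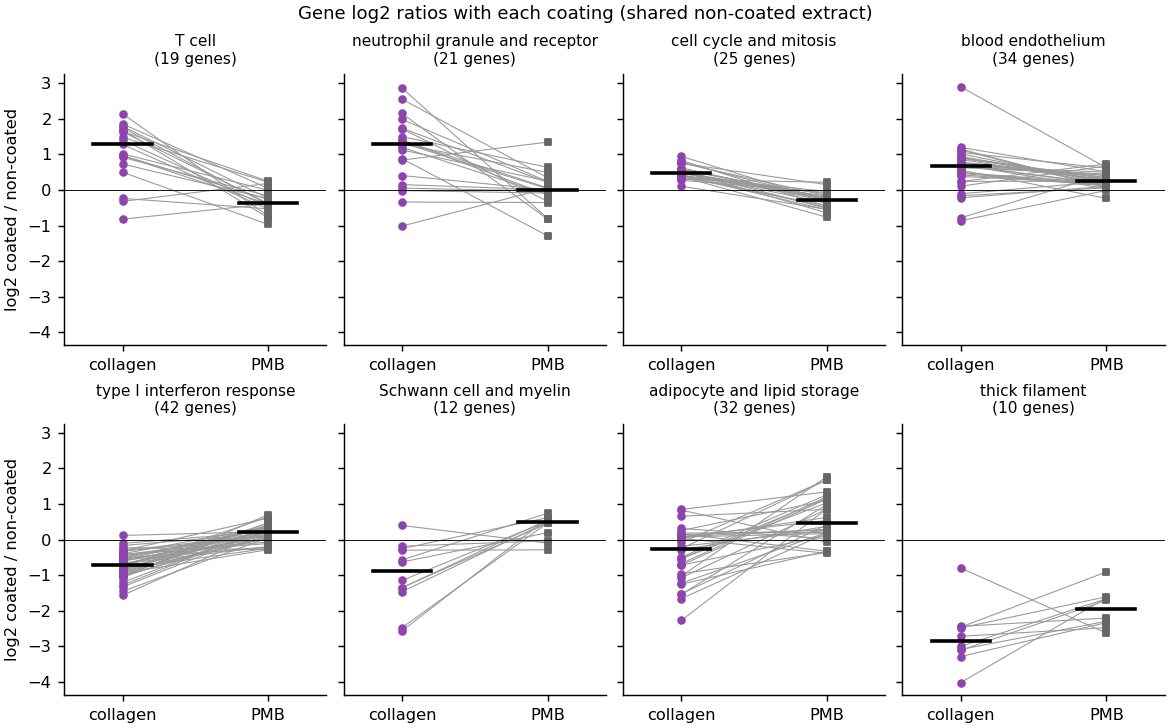
Log2 ratio of coated to non-coated scaffold (y axis) for genes with a value on all 4 arrays, in 8 gene lists. In each panel the collagen coating is on the left (purple circles) and the PMB coating on the right (grey squares), a line joins the values of a gene, and black bars are medians. T cell genes have medians of 1.28 with collagen and -0.38 with PMB, and type I interferon genes -0.71 and 0.22.

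How far a ratio can be relied on was read from transcripts spotted many times. 139 transcripts had between 8 and 12 entries with values on both arrays. Their spots had a median SD of 0.082 on replicate 1 and 0.12 on replicate 2, whereas the means of the arrays differed by a median of 0.20. The typical difference between the dye orientations was thus larger than the typical SD between spots of an array. For Mmp9, Fgf10, Icam1, Tnf and Fos the arrays differed by 0.018 to 0.14. For 2 transcripts the arrays had opposite signs with both means over 0.3 in size. B2m, the light chain of MHC class I and a common reference gene, had 0.38 ± 0.039 on replicate 1 and -1.10 ± 0.12 on replicate 2 (SD over 10 spots). The muscle regulator Myod1 had 0.84 ± 0.39 and -1.10 ± 0.45. Beta-actin (Actb) had 0.035 ± 0.066 and 0.69 ± 0.10. None of these 3 was called.

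**Figure D5:**
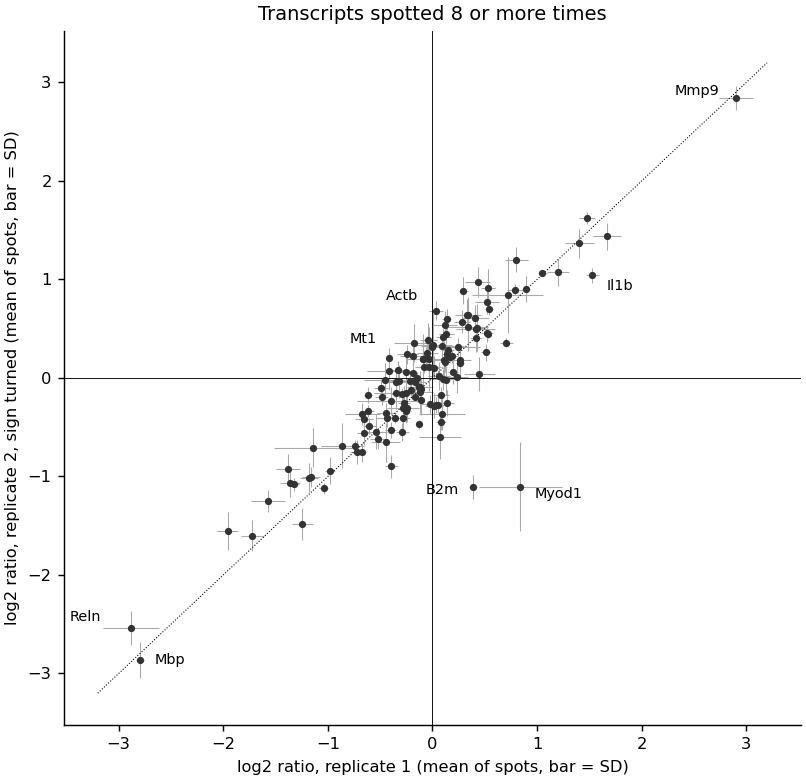
Mean log2 ratio of collagen-coated to non-coated scaffold on replicate 1 (x axis) and replicate 2 with its sign turned (y axis) for 139 transcripts spotted 8 or more times, with bars of 1 SD over spots. The dotted line marks equal values, and B2m and Myod1 lie far from it, in the quadrant of opposite signs.

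Where a called gene had several probes they mostly agreed in sign. Of 167 called genes with more than 1 probe, 164 had all probes on one side of 0 and 117 had all probes past 2-fold. Part of this agreement is built in, because the genes were called on the mean of the same probes. Some of these probes are also repeat spots of the same transcript. For 37 genes, called or not, the probes lay on both sides of 0 with at least 1 past 2-fold. The cytoskeletal linker Dst, for example, had probe means from -0.0015 to 1.63 and a gene mean of 0.61, the scaffold protein Pde4dip from -2.11 to 0.72, the activin subunit Inhbb from -0.43 to 1.28, and the calcium release channel Ryr1 from -1.65 to 0.20. Which transcripts these probes read was not tested.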

How the data were processed

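RNA from tissue cut out by laser was amplified, labelled with Cy3 or Cy5 and hybridized by the authors to whole mouse genome arrays, 2 per coating with the dyes swapped. They quantified spots with GenePix Pro, normalized the dyes by LOWESS and deposited log2 ratios per probe. LOWESS centres each array, so a difference shared by most genes cannot be seen. Not given in the sources used here are the reason some probes have no value and the way scans were joined. The values are ratios without signal, so depth is unknown, and the number of arrays limits the precision. Columns of samples outside this comparison were not used, other than the PMB arrays for values set side by side.

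The sign of replicate 2 was turned, probes with a value on both arrays were averaged, and probes of a gene were averaged (Python 3.11.15, pandas 2.3.3, numpy 2.4.6). Genes came from GEO's platform annotation, with 33651 probes given 1 gene, 56 several and 9670 none. A dye swap of 1 pair of extracts is 1 replicate, so no test was run, and differences were described by a 2-fold rule. The genes named were the 40 largest per direction, up to 8 called members and both extremes of each list described, defining markers and genes whose probes disagreed in sign. Other genes in the text were picked with their values in view. The comparison and the 77 lists were chosen with earlier results of these data known. Motifs and sequences came from RefSeq promoters of GRCm38.p6, matched by symbol for 9974 of 12356 genes. Alternatives covered each array alone, limma's scale and quantile methods (R 4.3.3, limma 3.58.1), stricter and looser rules and other ways to join probes. The averaging and calling were tested on simulated data.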

Additional observations from a re-analysis of the deposited data

Results flagged for a closer look

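8 genes were at least 2-fold one way on each collagen array and at least 2-fold the other way on each PMB array, relative to the same non-coated extract. The difference between the coatings was not tested. 7 of them were lower with collagen and higher with PMB. Cyp2e1, a cytochrome P450 that oxidizes small solvents, averaged -2.79 with collagen and 1.51 with PMB, and Retnla, secreted by alternatively activated macrophages, -2.59 with collagen and 1.69 with PMB. The carboxylesterase Ces1d had means of -2.03 (collagen) and 1.15 (PMB), and the steroid dehydrogenase Akr1c14 -1.22 (collagen) and 1.22 (PMB). Of regulators, the BMP ligand Bmp3 had -1.61 (collagen) and 1.70 (PMB), the secreted Wnt antagonist Sfrp4 -1.46 (collagen) and 1.04 (PMB), and the transcriptional regulator Prdm8 -1.92 (collagen) and 1.22 (PMB). Klrg1 alone ran the other way, at 1.24 with collagen and -1.12 with PMB.

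1598 probes had a value on 1 collagen array and entered no comparison. Of these, 106 showed at least 2-fold higher values for the collagen-coated sample and 73 at least 2-fold lower values. The directions were split by array. Of 1320 probes valued on replicate 1 alone, where the collagen-coated sample was in Cy5, 104 were at least 2-fold higher and 8 lower. Of 278 valued on replicate 2 alone, where it was in Cy3, 2 were at least 2-fold higher and 65 lower. Among probes with a value on both arrays 2.34% were higher and 3.19% lower. Probes with a value on replicate 1 alone included further epidermal genes, desmoplakin (Dsp) at 5.24, the surface protein Lypd3 at 3.69, the envelope precursor Sprr1b at 3.67 and cornifelin (Cnfn) at 3.25. The lower ones there included a probe of titin (Ttn) at -3.75, the axon growth protein Gap43 at -1.55, the sodium-proton exchanger Slc9a4 at -1.18 and Gm9909 at -1.06. On replicate 2 alone, a probe of Sprr2h stood at 3.75 and the palmitoyltransferase Zdhhc2 at 1.0. The lower ones there were led by the muscle genes Trdn at -3.57 and Abra at -3.14, the potassium channel Kcna1 at -3.07 and the muscle membrane protein Atp1b4 at -3.0. Such values have no second dye orientation.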

How the results depend on the processing

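No paired analysis was possible because the 2 arrays hold the same extracts with dyes exchanged and no test was made. Taking each array alone, over the probes with a value on both, gave 309 to 397 higher and 431 to 432 lower genes. By probe this gave 526 to 716 higher and 810 to 902 lower. A 1.5-fold threshold gave 887 higher and 907 lower genes, and 1628 higher and 1918 lower probes. The other alternatives gave between 262 and 332 higher and between 325 and 433 lower genes, with the fewest higher genes when a value on all 4 arrays was asked for and the fewest lower genes when 2-fold was asked on each array. Of the 346 called genes named in the text or by the naming rule, none changed sign under any alternative that gave it a value. With each array alone this was fixed in advance, because a called gene has the same sign on both arrays. Changes of the fold rule left the gene means as they were. In the same set 15 genes fell short of 2-fold on replicate 2 alone and 28 on replicate 1 alone. The number was 8 when the probe with the smallest difference stood for its gene and 5 after scaling. With 1 extract of each kind, the coating cannot be told apart from other differences between the extracts.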
